A study of Homo sapiens with 8 samples.

Results

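The 10 genes described here are regulators of blood stem and progenitor cells that recur in leukaemia, followed through the BET inhibitor response of an erythroleukaemia line and of its drug-resistant derivative. They are MYB, RUNX1, FLI1, ERG, MEIS1, MSI2, HHEX, LYL1, ETV6 and HEMGN, chosen by gene symbol, and all 10 are among the 19718 coding genes of the table. The cells were HEL92.1.7, a cultured erythroleukaemia line that the labels class as secondary AML and that is called parental here, and HEL OTX P/R, a single persister-resistant derivative of it, called P/R here. The sources used here do not say how the derivative was selected or whether it is 1 clone. OTX015 (birabresib) is a small molecule that occupies the bromodomains of BET proteins and displaces them from acetylated histones. The 4 groups were P/R cells after 8 hours in 1000 nM OTX015, untreated P/R cells, parental cells after the same exposure, and untreated parental cells, with 2 libraries each. The untreated cells are not labelled as having received a vehicle. All cells were grown in the same serum-containing medium, and the study's design text describes biologic replicates and cells treated independently.

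Most of the 10 genes encode transcription factors that act on shared regulatory elements in early blood cells. RUNX1, FLI1, ERG and LYL1 belong, with TAL1, LMO2 and GATA2, to a group of factors that bind together at enhancers of stem and progenitor cells. MYB drives proliferation of immature cells and recruits the acetyltransferases CBP and p300, whose marks BET proteins read, and MEIS1 is a homeodomain partner of HOX proteins. MSI2 differs from the rest, being an RNA-binding protein that controls translation in stem cells, and HEMGN (hemogen) is a nuclear protein of erythroid and megakaryocytic cells.

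Levels were read as quantile-normalized FPKM, a fragment count corrected for transcript length and for the size of the library, so genes can be compared per length. The library totals averaged 678133 FPKM, and because the depth of sequencing is unknown, counting error is not given. Log2 changes are on the log2(FPKM + 1) scale, and every adjusted p is from limma's moderated test with Benjamini-Hochberg adjustment over the 11255 genes that reached 1 FPKM in at least 2 libraries, with a threshold of 0.05. Replicates correlated at r = 0.996 to 0.997 across genes and libraries of different groups at 0.959 to 0.985, and genes are not independent replicates. With 2 libraries a group, an exact permutation test cannot give a two-sided p below 0.333, so each call rests on the spread that limma shares among genes and groups. These are bulk cultures, in which fewer cells expressing a gene and less RNA per cell cannot be told apart.

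The labels give the cell type as leukemia blast cells, and the marker genes were those of erythroid and megakaryocytic cells. All 8 erythroid markers were at 1 FPKM or more in every library, with summed levels of 10804 to 11956 FPKM in P/R cells under OTX015, 12145 to 12354 FPKM in untreated P/R cells, 12162 to 13049 FPKM in parental cells under OTX015 and 13015 to 13065 FPKM in untreated parental cells. HBG2 and HBG1 made up most of each sum, at 9651 and 2467 FPKM in untreated parental cells, so the sums say little about the other markers. Of 6 monocyte markers LYZ alone reached 1 FPKM, with sums of 9.93 to 13.5 FPKM over all libraries, and FCN1 was listed at 0 throughout. No epithelial or stromal marker reached 1 FPKM. Of 6 lymphocyte markers 1 or 2 reached it, the sums were 2.01 to 2.75 FPKM in P/R cells and 4.13 to 7.09 FPKM in parental cells, and the T cell gene CD3D was listed at 0 throughout. Of 6 megakaryocyte markers, 5 reached 1 FPKM in every library, with sums of 627 to 697 FPKM in P/R cells under OTX015, 762 to 769 FPKM in untreated P/R cells, 482 to 495 FPKM in parental cells under OTX015 and 545 to 573 FPKM in untreated parental cells. These sums do not overlap between the lines in either state.

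The 10 genes spanned a wide range of levels. In untreated parental cells the order from the top was LYL1 at 288 ± 14.6 FPKM (mean ± SD over n = 2 libraries, here and throughout), RUNX1 at 144 ± 11.3, FLI1 at 135 ± 2.09, MYB at 70.9 ± 0.0953, HHEX at 69.2 ± 0.676, HEMGN at 31.5 ± 2.26, MSI2 at 19.6 ± 0.657, ETV6 at 13.5 ± 0.00849, MEIS1 at 8.74 ± 0.0209 and ERG at 0.584 ± 0.0276 FPKM. RUNX1 and FLI1, neighbours in this order, overlapped in their replicates; the other neighbours did not. LYL1, a basic helix-loop-helix factor related to TAL1, ranked between 271 and 416 of all 19718 genes in the 8 libraries. ERG, an ETS factor needed to maintain stem cells, never exceeded 0.776 FPKM, was below the filter on low values and was not tested, so 9 of the 10 genes entered the tests.

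**Figure D1:**
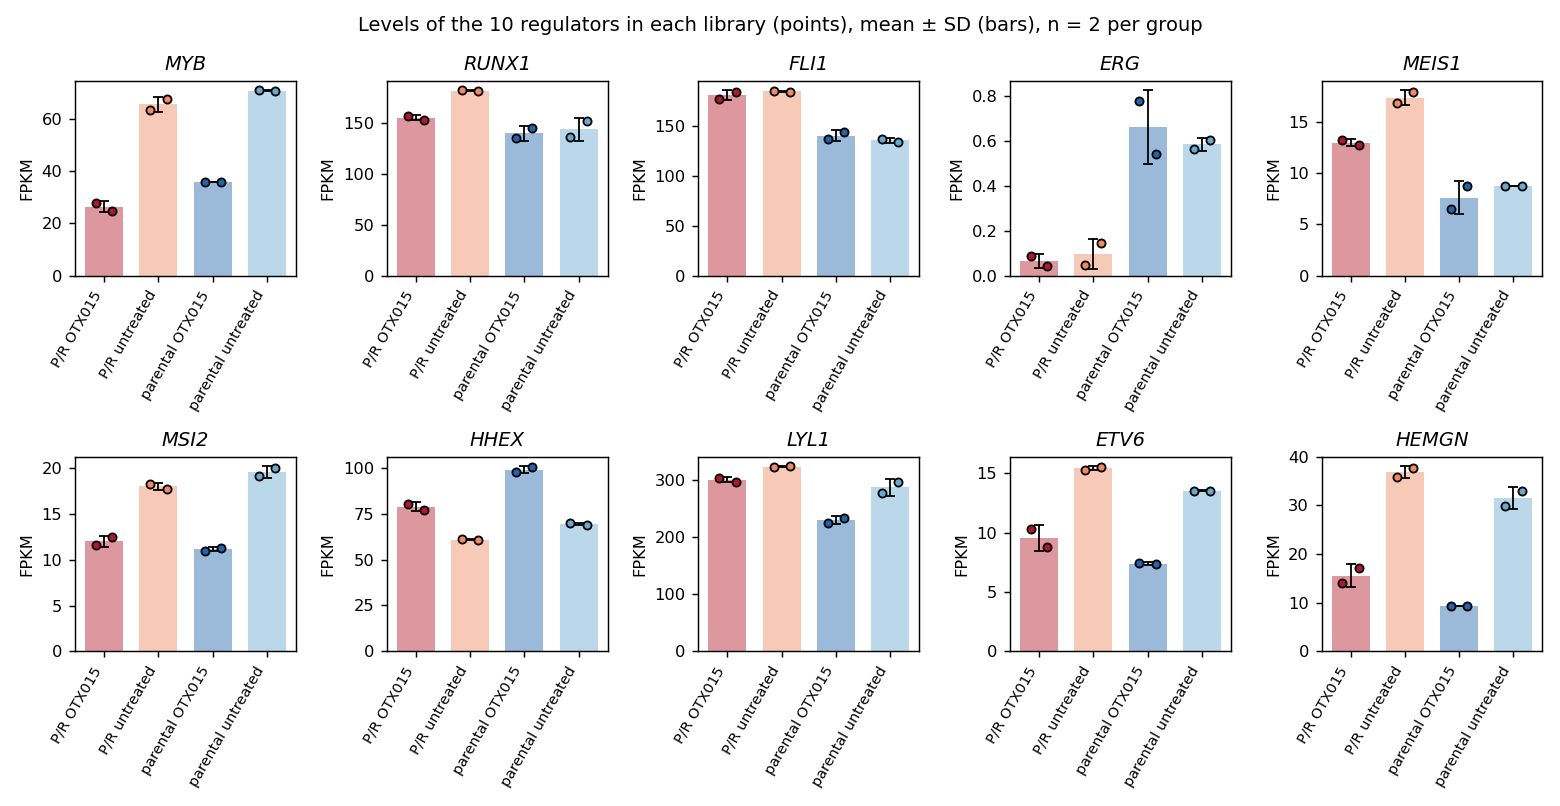
FPKM of each of the 10 genes, with P/R cells under OTX015, untreated P/R cells, parental cells under OTX015 and untreated parental cells from left to right; bars are means, error bars SD and points the 2 libraries. MYB, MSI2, ETV6 and HEMGN stand lower under OTX015 in both lines, HHEX stands higher, and FLI1 and MEIS1 stand higher in P/R cells with and without drug; each panel has its own scale.

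Promoter windows were available from RefSeq (GRCh38.p14) for 9 of the 10 genes, in 14 windows that run from 250 bases before to 50 after an annotated start. FLI1 is named only. Both strands were searched for AGATAA, a form of the GATA motif, for CCGGAAGT, an ETS motif, for TGTGGT, a RUNX motif, for CACGTG, an E-box, and for a second E-box form, CAGCTG. The GATA form was present in 4 of the 14 windows, against 10.3% of all 35116 windows in the table; 2 of the 4 are overlapping windows of ERG. CCGGAAGT was present in 1 window against 4.14% of all, TGTGGT in 2 against 13.1%, CACGTG in 0 against 7.26% and CAGCTG in 0 against 17.9%. A match is a description of letters, not a bound site. The 3 windows below are shown because they hold these matches and belong to HEMGN, which fell most under OTX015 in parental cells, to MEIS1, which differed most between the untreated lines, and to LYL1, the most abundant of the genes. Capitals mark the matches in either orientation, and each is written 5′ to 3′ on the strand of the gene.
HEMGN, the second of 2 annotated starts (chr9:97938123-97938422, minus strand): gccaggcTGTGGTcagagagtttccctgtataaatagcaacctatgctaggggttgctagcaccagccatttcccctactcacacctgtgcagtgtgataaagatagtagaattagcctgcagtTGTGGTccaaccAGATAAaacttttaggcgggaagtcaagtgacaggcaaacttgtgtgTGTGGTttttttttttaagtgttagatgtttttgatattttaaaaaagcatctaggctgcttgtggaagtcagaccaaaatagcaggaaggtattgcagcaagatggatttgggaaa
MEIS1 (chr2:66434875-66435174, plus strand): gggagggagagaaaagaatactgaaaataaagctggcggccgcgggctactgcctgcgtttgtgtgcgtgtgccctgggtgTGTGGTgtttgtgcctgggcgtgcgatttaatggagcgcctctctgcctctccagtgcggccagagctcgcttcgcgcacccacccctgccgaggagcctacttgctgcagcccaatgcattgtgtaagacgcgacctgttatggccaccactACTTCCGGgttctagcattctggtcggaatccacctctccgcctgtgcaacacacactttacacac
LYL1 (chr19:13102809-13103108, minus strand): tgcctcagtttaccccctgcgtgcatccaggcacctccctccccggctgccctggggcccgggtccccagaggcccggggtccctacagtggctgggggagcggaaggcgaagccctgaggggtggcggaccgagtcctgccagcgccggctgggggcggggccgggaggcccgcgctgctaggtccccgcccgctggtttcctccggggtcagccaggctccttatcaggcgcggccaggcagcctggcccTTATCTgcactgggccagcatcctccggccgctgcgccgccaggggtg
The HEMGN window holds 1 GATA match and 3 RUNX matches, the MEIS1 window 1 ETS and 1 RUNX match, and the LYL1 window 1 GATA match. The other HEMGN window holds none of the 5 motifs.

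OTX015 lowered HEMGN, MYB, ETV6 and MSI2 and raised HHEX in both lines. In P/R cells 6 of the 9 genes tested fell (HEMGN, MYB, ETV6, MSI2, RUNX1 and MEIS1), HHEX rose and 2 (FLI1 and LYL1) did not pass, where 21.8% of all tested genes fell and 22.5% rose. The median log2 change there was -0.39 over the 9 genes and 0.01 over all genes tested. In parental cells 5 of the 9 fell (HEMGN, MYB, ETV6, MSI2 and LYL1), HHEX rose and 3 (RUNX1, FLI1 and MEIS1) did not pass, where 24.7% of all tested genes fell and 25.7% rose; the median was -0.32 against 0.02 over all genes. The treated and untreated libraries did not overlap for 8 of the 9 genes in P/R cells, against 72.7% of all tested genes, and for 6 of 9 in parental cells, against 75.6%. The 2 comparisons share no library.

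MYB, the proliferation factor, read 27.9 and 24.9 FPKM in P/R cells under OTX015, against 63.6 and 67.6 FPKM untreated. In parental cells it read 35.8 and 35.7 FPKM under OTX015, against 70.9 and 70.8 FPKM untreated. All 4 treated libraries were far below all 4 untreated ones in both lines. The log2 change was -1.28 (SE 0.0632, adjusted p = 1.79e-06) in P/R cells and -0.97 (SE 0.0632, adjusted p = 4.84e-06) in parental cells, larger in size than that of 98.7% of all tested genes in P/R cells and 95.4% in parental cells.

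HEMGN, the erythroid nuclear protein, read 14.0 and 17.2 FPKM in P/R cells under OTX015, against 35.9 and 37.7 FPKM untreated. In parental cells it read 9.32 and 9.34 FPKM under OTX015, against 29.9 and 33.1 FPKM untreated. The treated libraries were lower in each line, without overlap. The fall was to 0.423 of the untreated mean in P/R cells (log2 change -1.20, SE 0.0958, adjusted p = 2.25e-05), and to 0.296 in parental cells (log2 change -1.65, SE 0.0958, adjusted p = 2.46e-06). Among the 8 erythroid markers, 5 fell, 1 rose and 2 did not pass in P/R cells, and 4 fell, 1 rose and 3 did not pass in parental cells, and their part in the change of HEMGN was not tested.

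The ETS members went different ways. ETV6, an ETS repressor that blood stem cells need, read 10.4 and 8.80 FPKM in P/R cells under OTX015, against 15.3 and 15.6 FPKM untreated, and 7.48 and 7.33 FPKM in parental cells under OTX015, against 13.5 and 13.6 FPKM untreated. It fell in both lines, by 0.64 on the log2 scale in P/R cells (adjusted p = 0.000378) and by 0.79 in parental cells (adjusted p = 8.18e-05). FLI1, an ETS activator of megakaryocyte genes, read 177 and 184 FPKM in P/R cells under OTX015, against 185 and 184 FPKM untreated, and 137 and 144 FPKM in parental cells under OTX015, against 137 and 134 FPKM untreated. The treated and untreated libraries overlapped in each line, and neither change passed, with a log2 change of -0.03 (95% interval -0.13 to 0.07, adjusted p = 0.611) in P/R cells and 0.05 (95% interval -0.05 to 0.15, adjusted p = 0.371) in parental cells. ERG was at 0.0857 and 0.0435 FPKM in P/R cells under OTX015, against 0.0481 and 0.145 FPKM untreated, and at 0.776 and 0.543 FPKM in parental cells under OTX015, against 0.564 and 0.603 FPKM untreated.

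MSI2, the RNA-binding protein, read 11.6 and 12.4 FPKM in P/R cells under OTX015, against 18.3 and 17.7 FPKM untreated, and 11.0 and 11.3 FPKM in parental cells under OTX015, against 19.1 and 20.1 FPKM untreated. MSI2 fell to 0.667 of the untreated mean in P/R cells (log2 change -0.55, adjusted p = 0.000309) and to 0.569 in parental cells (log2 change -0.76, adjusted p = 3.44e-05). HHEX, a homeobox factor of early blood and endothelial cells, was the only one of the 9 that rose. It read 80.3 and 76.9 FPKM in P/R cells under OTX015, against 61.2 and 60.5 FPKM untreated, and 97.5 and 100.3 FPKM in parental cells under OTX015, against 69.7 and 68.7 FPKM untreated. Every treated library exceeded every untreated one, with a log2 change of 0.36 in P/R cells (adjusted p = 0.000277) and 0.51 in parental cells (adjusted p = 3.01e-05).

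RUNX1, the DNA-binding subunit of core binding factor, read 157 and 153 FPKM in P/R cells under OTX015, against 182 and 181 FPKM untreated, a fall by 0.23 on the log2 scale (adjusted p = 0.0122). In parental cells it read 135 and 145 FPKM under OTX015, against 136 and 151 FPKM untreated; the libraries overlapped and the difference did not pass (adjusted p = 0.623). The call in P/R cells was lost without P/R untreated replicate 1 (adjusted p = 0.0588), P/R untreated replicate 2 (adjusted p = 0.0550) or P/R OTX015 replicate 2 (adjusted p = 0.0576), with log2 changes of -0.22, -0.23 and -0.21. LYL1 read 304 and 298 FPKM in P/R cells under OTX015, against 323 and 325 FPKM untreated, a difference that did not pass (log2 change -0.11, adjusted p = 0.0819). In parental cells it read 225 and 235 FPKM under OTX015, against 277 and 298 FPKM untreated, and fell by 0.32 on the log2 scale (adjusted p = 0.000360).

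MEIS1, the HOX partner, read 13.2 and 12.7 FPKM in P/R cells under OTX015, against 16.9 and 17.9 FPKM untreated, a fall by 0.39 on the log2 scale (adjusted p = 0.0226). In parental cells it read 6.45 and 8.78 FPKM under OTX015, against 8.76 and 8.73 FPKM untreated. One treated parental library was low and the other at the untreated level, and the difference did not pass (log2 change -0.19, adjusted p = 0.203). Without parental OTX015 replicate 2 the parental fall passed (log2 change -0.39, adjusted p = 0.0138). The call in P/R cells did not hold without P/R untreated replicate 1 (adjusted p = 0.0580), P/R untreated replicate 2 (0.108), P/R OTX015 replicate 1 (0.0683) or P/R OTX015 replicate 2 (0.0943), nor without the filter on low values (0.0690).

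**Figure D2:**
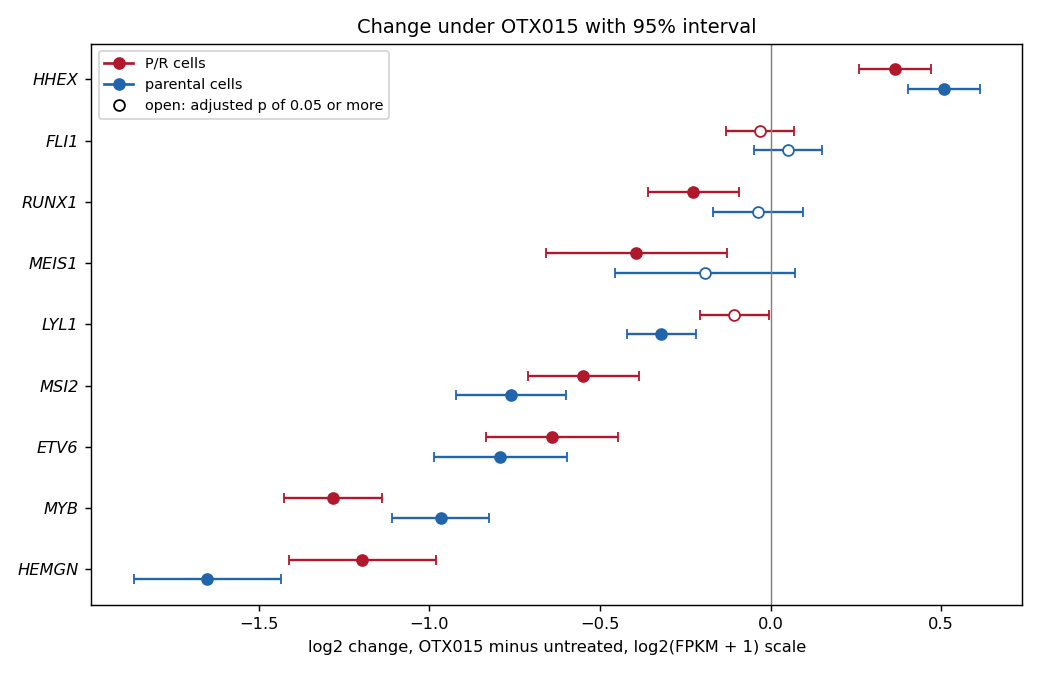
Log2 change under OTX015, treated minus untreated, on the log2(FPKM + 1) scale (horizontal axis) for the 9 tested genes, with P/R cells above parental cells and bars for the 95% interval; filled points passed an adjusted p of 0.05. HEMGN and MYB lie farthest to the left, HHEX lies to the right of 0 in both lines, and both FLI1 intervals cross 0.

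Whether the response differed between the lines was tested for each gene as P/R response minus parental response. By limma, 0 of the 9 genes passed, with adjusted p from 0.309 to 0.752, where 0.08% of all tested genes passed. At an unadjusted p under 0.05 the number was 4 of 9 (MYB, RUNX1, LYL1 and HEMGN), and 1080 of the 11255 genes tested. The difference was -0.31 (95% interval -0.52 to -0.11) for MYB and 0.45 (95% interval 0.15 to 0.76) for HEMGN. For LYL1 it was 0.21 (95% interval 0.07 to 0.36), for MSI2 0.21 (-0.02 to 0.44), for ETV6 0.15 (-0.12 to 0.43), for HHEX -0.15 (-0.29 to 0.003), for RUNX1 -0.19 (-0.38 to -0.002), for MEIS1 -0.20 (-0.58 to 0.17) and for FLI1 -0.08 (-0.22 to 0.06). A call in 1 line and not in the other is therefore not shown to be a difference between them.

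Without drug, P/R cells had more MEIS1, FLI1, RUNX1 and LYL1 and less HHEX than parental cells. Of the 9 genes, 4 were higher, 1 was lower and 4 (MYB, MSI2, ETV6 and HEMGN) did not pass, where 11.7% of all tested genes were higher and 11.9% lower; the median log2 difference was 0.18 over the 9 genes and -0.01 over all. MEIS1 showed the widest gap, at 17.4 ± 0.709 FPKM in P/R cells and 8.74 ± 0.0209 FPKM in parental cells (log2 difference 0.91, SE 0.117, adjusted p = 0.000518), wider than that of 97.6% of all tested genes. FLI1 was at 185 ± 0.542 FPKM in P/R cells and 135 ± 2.09 FPKM in parental cells (log2 difference 0.44, SE 0.0441, adjusted p = 0.000111). RUNX1 was at 181 ± 0.400 FPKM in P/R cells and 144 ± 11.3 FPKM in parental cells (log2 difference 0.34, adjusted p = 0.00278). The P/R and parental libraries did not overlap for these 3 genes, nor for any other of the 9 tested, as was the case for 62.3% of all tested genes. Of the 5 megakaryocyte markers tested, 4 were higher in untreated P/R cells and 1 was lower; their part in the difference of FLI1 was not tested. The genes that did not pass had log2 differences of -0.11 for MYB (95% interval -0.25 to 0.03), -0.11 for MSI2 (-0.27 to 0.05), 0.18 for ETV6 (-0.02 to 0.37) and 0.22 for HEMGN (0.01 to 0.44).

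The 2 smaller untreated differences depended on single libraries. LYL1 was at 324 ± 1.18 FPKM in P/R cells and 288 ± 14.6 FPKM in parental cells (log2 difference 0.17, adjusted p = 0.0214), and the call was lost without parental untreated replicate 1 (log2 difference 0.12, adjusted p = 0.143), P/R untreated replicate 1 (0.0996) or P/R untreated replicate 2 (0.111). HHEX was at 60.9 ± 0.447 FPKM in P/R cells and 69.2 ± 0.676 FPKM in parental cells (log2 difference -0.18, adjusted p = 0.0198). Its call was lost without any one of the 4 untreated libraries, with adjusted p of 0.0914 and 0.114 without P/R replicates 1 and 2, and of 0.0925 and 0.0611 without parental replicates 1 and 2. Both calls were also lost without the variance trend in limma (adjusted p = 0.0954 for LYL1 and 0.0622 for HHEX).

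Under OTX015, 5 of the 9 genes were higher in P/R cells, 2 were lower and 2 (RUNX1 and MSI2) did not pass, where 12.7% of all tested genes were higher and 11.7% lower. The median log2 difference was 0.33 over the 9 genes and -0.01 over all genes tested. MEIS1 stood at 13.0 ± 0.319 FPKM in treated P/R cells and 7.61 ± 1.64 FPKM in treated parental cells (log2 difference 0.71, adjusted p = 0.00197). HEMGN stood at 15.6 ± 2.29 FPKM in treated P/R cells and 9.33 ± 0.0164 FPKM in treated parental cells (log2 difference 0.68, adjusted p = 0.000836). LYL1 stood at 301 ± 4.24 FPKM in treated P/R cells and 230.1 ± 6.60 FPKM in treated parental cells (log2 difference 0.39, adjusted p = 0.000256).

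FLI1 was higher, at 181 ± 4.86 FPKM in treated P/R cells and 140.3 ± 5.30 FPKM in treated parental cells (log2 difference 0.36, adjusted p = 0.000327). MYB was lower, at 26.4 ± 2.07 FPKM in treated P/R cells and 35.8 ± 0.0581 FPKM in treated parental cells (log2 difference -0.43, adjusted p = 0.00109), and so was HHEX, at 78.6 ± 2.45 FPKM in P/R cells and 98.9 ± 1.99 FPKM in parental cells (log2 difference -0.33, adjusted p = 0.000850). ETV6 was at 9.57 ± 1.10 FPKM in treated P/R cells and 7.40 ± 0.108 FPKM in treated parental cells (log2 difference 0.33, adjusted p = 0.0228); that call did not survive leaving out parental OTX015 replicate 1 (0.34, adjusted p = 0.0790), parental OTX015 replicate 2 (0.31, adjusted p = 0.0962) or P/R OTX015 replicate 1 (0.22, adjusted p = 0.127), nor a fit of the 2 compared groups by themselves (adjusted p = 0.0628). MSI2 differed by 0.10 (95% interval -0.06 to 0.26, adjusted p = 0.359) and RUNX1 by 0.15 (95% interval 0.02 to 0.28, adjusted p = 0.101). The 2 line comparisons share no library, but each shares its libraries with the OTX015 comparisons. The untested ERG was lower in P/R cells, where its highest library was at 0.145 FPKM, against a lowest of 0.543 FPKM in parental cells. With no filter on low values, and adjustment over 16730 genes, the limma fit gave a log2 difference of -0.64 (adjusted p = 0.00423) under OTX015 and -0.53 (adjusted p = 0.00795) untreated. Below 1 FPKM the 1 added before taking logs makes such values smaller than the fold change. The ratios of mean FPKM, P/R to parental, were 0.098 under OTX015 and 0.165 untreated.

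**Figure D3:**
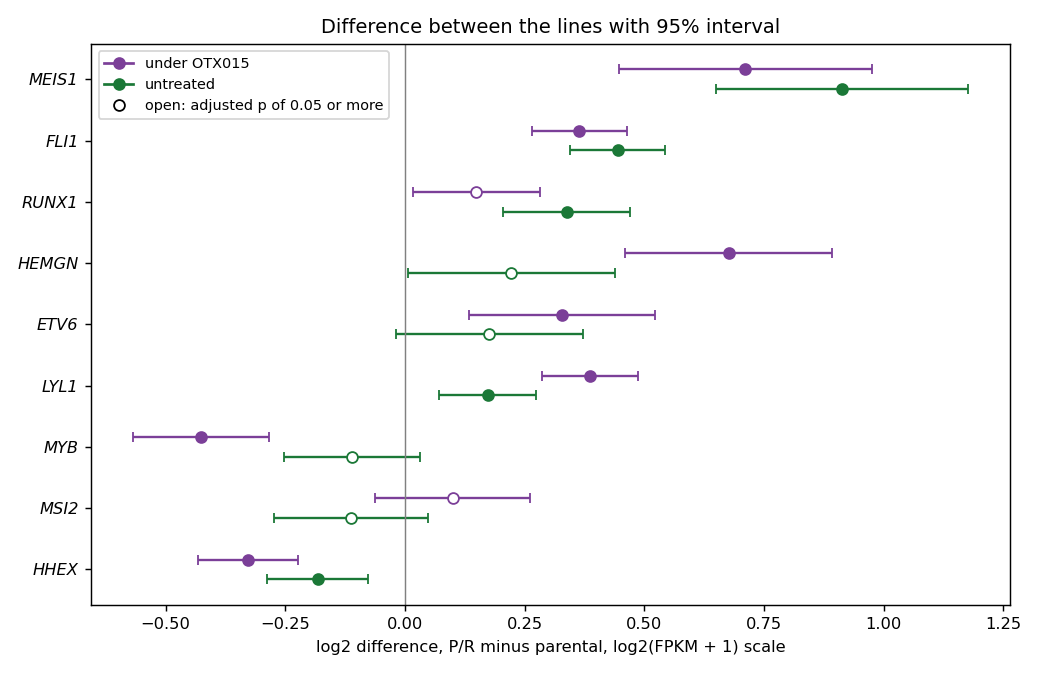
Log2 difference between the lines, P/R minus parental, on the log2(FPKM + 1) scale (horizontal axis) for the 9 tested genes, with treated cells above untreated cells and bars for the 95% interval; filled points passed an adjusted p of 0.05. MEIS1 and FLI1 lie to the right of 0 in both states, HHEX lies to the left in both, and MYB, HEMGN and ETV6 are filled under OTX015 and open without it.

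The 10 genes lie on 9 chromosomes, with RUNX1 and ERG both on chromosome 21. To show whether nearby genes differed too, each gene was set beside the 10 nearest tested genes on either side, in the order of GENCODE 29, which placed 11227 of the tested genes. For MEIS1 on chromosome 2 the 20 neighbours had a median log2 difference of -0.09 between untreated P/R and parental cells, against 0.91 for MEIS1 itself. For FLI1 on chromosome 11 the median was 0.03, against 0.44 for FLI1. Around RUNX1 the median was -0.21, with 5 of 20 neighbours lower in P/R cells and 0 higher, against 0.34 for RUNX1, which stood above all 20 (their highest was 0.17). Around ERG 7 of 20 neighbours were lower in P/R cells and 1 was higher. Over all tested genes 11.9% were lower and 11.7% higher. The neighbours of RUNX1 and ERG are partly the same genes, so their counts are not separate observations. MSI2, on chromosome 17, had a neighbour median of -0.02, against -0.11 for MSI2.

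**Figure D4:**
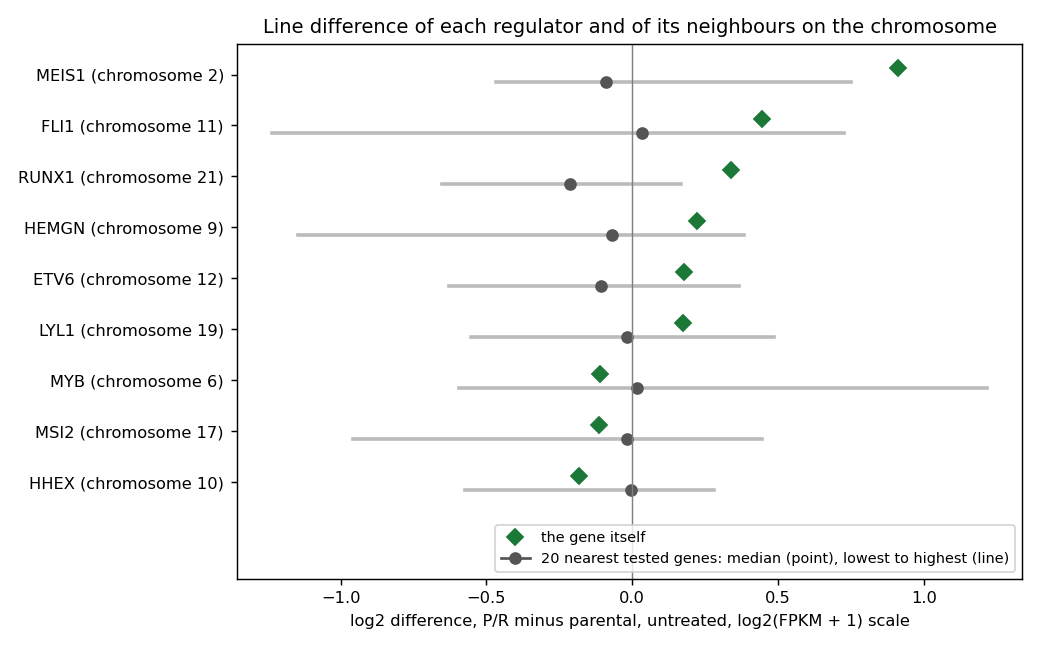
Log2 difference, untreated P/R minus untreated parental cells, on the log2(FPKM + 1) scale (horizontal axis) for each tested gene (diamonds) and for its 20 nearest tested neighbours on the chromosome (median as a point, lowest to highest as a line). MEIS1 at 0.91 and RUNX1 at 0.34 lie beyond all of their neighbours, and the neighbour medians of the 9 genes lie between -0.21 and 0.03.

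For each tested gene, the genes whose log2 level followed it most closely over the 8 libraries were sought among 8296 others with a mean of at least 5 FPKM. The 8 libraries fall into 4 groups, so such a correlation mostly reflects 4 group means. MYB was followed most closely by MRPL19 (r = 0.996) and RPIA (r = 0.995), HEMGN by HES1 (r = 0.996) and SENP1 (r = 0.995), MSI2 by ZNF326 (r = 0.999) and TMX2 (r = 0.997), and ETV6 by APLNR (r = 0.997) and SLC6A9 (r = 0.996). HHEX was followed by NFE2L1 and HES6 (r = 0.994 each), and LYL1 by SUSD1 (r = 0.991) and ARRB1 (r = 0.987). RUNX1 was followed by ZNF286A (r = 0.981) and ABHD2 (r = 0.979), FLI1 by VAMP2 and DDT (r = 0.994 each) and MEIS1 by CD68 (r = 0.988) and RABEP1 (r = 0.984). Of these last 6 genes, 4 (ZNF286A, VAMP2, CD68 and RABEP1) lie on chromosome 17, and RUNX1, FLI1 and MEIS1 do not. Among the closest genes of the other members, only NFE2L1 lies there. The share of all compared genes on chromosome 17 was not computed, so this count has no background and nothing is read from it.

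Relatives and partners of the 10 genes gave the setting, in 8 lists, of whose members and of the cell type markers 152 of 154 entries were in the table. The shares of all tested genes that rose or fell, given above, are the background to their counts. In P/R cells under OTX015, progenitor surface receptors and signals fell in 7 of 9 tested cases and rose in 0, with a median log2 change of -0.42. In parental cells they fell in 8 of 9 tested cases and rose in 0, with a median log2 change of -0.44. CD34, TEK and ANGPT1 passed the filter on low values only through untreated libraries. Their part in these counts and medians is therefore no separate support. CXCR4 and IL3RA averaged higher under OTX015 in both lines, but below 1 FPKM, and were not tested. In parental cells ANGPT1, a ligand of the TIE2 receptor, had a log2 change of -1.31 and ENG, the endoglin coreceptor, one of -1.04. ANGPT1 was low in parental cells, at 1.83 FPKM untreated and 0.143 FPKM under OTX015. Among 18 other ETS genes tested, 7 fell and 0 rose in P/R cells (median -0.23), and 7 fell and 2 rose in parental cells (median -0.13). SPIB, among the parental falls, passed the filter only through untreated libraries. The log2 changes in parental cells were -1.57 for SPI1, -1.37 for FEV, 0.21 for ELF1 and 0.42 for ETV5. HOX and TALE homeobox genes, the family partners of MEIS1, fell in 8 and rose in 0 of 18 cases in P/R cells (median -0.21), and fell in 6 and rose in 1 in parental cells (median -0.13), with log2 changes in parental cells of -1.16 for HOXA11 and -0.71 for HOXB6. HOXA11 and HOXB6 averaged 5 FPKM, the level required of named genes, only in untreated cells, so the sizes of their falls are no separate support.

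Of the paralogues and cofactors of MYB, 4 of 5 tested rose and 0 fell in each line (median 0.43 in P/R cells and 0.48 in parental cells). MYBL1, among the rises in each line, passed the filter on low values only through treated libraries, so its rise is no separate support. In parental cells TAF12 and EP300, the gene of p300, rose by 0.63 and 0.48 on the log2 scale. CREBBP, the gene of CBP, did not pass by limma in parental cells (log2 change 0.06, adjusted p = 0.523) or in P/R cells (log2 change 0.03, adjusted p = 0.812). MSI1, the paralogue of MSI2 in that list, averaged at most 0.0750 FPKM in a group and was not tested. Another list of 9 held TAL1, LMO2 and GATA2, of the factor group of LYL1 and RUNX1, with LDB1, TCF3, TCF12, SSBP2, SSBP3 and LMO4. Of these, 3 rose and 3 fell in P/R cells (median -0.01), and 4 rose and 3 fell in parental cells (median 0.10). The log2 changes in parental cells were -2.04 for LMO2, -0.53 for TCF3, 0.64 for LMO4 and 0.63 for SSBP2. SSBP2 reached 5 FPKM, the level required of named genes, only under OTX015, so the size of its rise is no separate support. Of 4 core binding factor and ETO genes tested, 2 rose and 0 fell in each line (median 0.21 in P/R cells and 0.40 in parental cells), with log2 changes in parental cells of 0.94 for CBFA2T2 and 0.64 for RUNX1T1. Of 12 MLL, menin and DOT1L partners, 3 rose and 1 fell in P/R cells (median 0.10), and 3 rose and 2 fell in parental cells (median 0.06), where the log2 changes were 0.68 for AFF1, 0.41 for PSIP1, -0.33 for ASH2L and -0.22 for DOT1L. Of 15 other progenitor factors, 2 rose and 7 fell in P/R cells (median -0.16), and 5 rose and 7 fell in parental cells (median -0.19), where the log2 changes were -1.16 for IKZF1, -1.10 for TRIB2, 0.79 for ZFPM1 and 0.64 for CEBPB.

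Between the untreated lines, log2 differences are P/R minus parental. Of progenitor surface receptors and signals, 4 of 9 were higher and 2 lower in P/R cells (median 0.13), with differences of 1.67 for ANGPT1, 0.37 for ENG, -2.11 for KIT, the stem cell factor receptor, and -0.28 for THY1. ANGPT1 met the 5 FPKM rule for named genes only through untreated P/R cells, where it averaged 8.02 FPKM. KIT met it only through parental cells, at 12.3 FPKM untreated, against 2.09 FPKM in untreated P/R cells. The sizes of the ANGPT1 and KIT differences are therefore no separate support. Of other progenitor factors 3 of 15 were higher and 6 lower (median 0.02), with 0.70 for TRIB1, 0.38 for ZFPM1, -1.23 for GFI1 and -0.43 for IGF2BP2. GFI1 met the 5 FPKM rule only through treated parental cells, at 6.02 FPKM, so its size of difference is no separate support either. Of the ETS genes 3 of 18 were higher and 2 lower (median -0.02), with 0.73 for ETV5, 0.30 for ETS1, -0.40 for FEV and -0.24 for ETS2. Of the HOX and TALE genes 2 of 18 were higher and 0 lower (median 0.05), with 0.44 for HOXB2 and 0.24 for HOXB4. Of the list that held TAL1, LMO2, GATA2 and LDB1, 2 of 9 were higher and 2 lower (median -0.02), with 0.39 for TCF12, 0.23 for TAL1, -0.82 for LMO4 and -0.19 for LDB1. Of the core binding factor and ETO genes 0 of 4 were higher and 1 lower (median 0.11), CBFA2T3 with -0.87. By limma, 0 of the 5 MYB relatives and cofactors passed (1 at an unadjusted p under 0.05, median 0.01), and 0 of the 12 MLL, menin and DOT1L partners passed (1 at an unadjusted p under 0.05, median -0.01).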

How the data were processed

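RNA sequencing libraries were made from DNase-treated total RNA of 8 cultures. The sources used here do not say whether strand was kept, so reads of overlapping genes on opposite strands may not be told apart. The deposited table holds 1 column per library in a unit taken to be FPKM; the header names no unit, and it was inferred from the values and from TopHat2 2.0, Cufflinks 2.0 and hg19, which are named per the submitters' processing notes without their roles. The deposited values are quantile normalized: once sorted, the values of different libraries lie within 0.136% of each other at a mean of 1 FPKM or more. This removes global shifts of RNA content and can give replicates of equal rank the same value.

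A gene was kept if 2 or more of the 8 libraries had 1 FPKM or more. Group means of log2(FPKM + 1) were fitted in limma 3.58.1 (R 4.3.3) with a variance trend, 4 residual and 5.23 prior degrees of freedom, and 5 contrasts. Tests are two-sided. In a test on simulated data with the parental OTX015 contrast (11255 genes), 100 log2 changes of 1 and 100 of 0.5 were planted. The fit recovered 98% of those of 1 and 71% of those of 0.5, with 4 false calls among 173. In the data this contrast called 5667 genes (50.4%), and recovery and false calls depend on that share. The simulated rates therefore do not carry over directly. Named genes are the 10 members, up to 2 rises and 2 falls per list among called genes that average 5 FPKM or more in a group, and the 2 closest genes by Pearson r. One gene that this rule names is not reported here. The members, lists and tests were chosen with earlier results of these data known. Lists were described by counts, with no set test.

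The fits were repeated with other pseudocounts (0.1 or 5), without the filter, with a filter at 5 FPKM on average, without the trend, after centring libraries on their medians, on the compared groups alone, with the replicate number as a block, and with single libraries left out; a block with crossed numbers was added after the data were seen. Protein sequences were not used here.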

Additional observations from a re-analysis of the deposited data

How the results depend on the processing

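The number of the 9 tested genes called stayed within 1.5 times of that reported under every alternative run for the difference in response, where it was 0 throughout, for both OTX015 comparisons and for the lines under OTX015. For the untreated line comparison it was 3 without the variance trend, against 5, and 3 to 5 when 1 library was left out; it was 3 without parental untreated replicate 1, P/R untreated replicate 1 or P/R untreated replicate 2. The log2 changes of single genes kept their side of the threshold in 689 of 711 repeats, lost the call in 21 and gained it in 1. Reversals of direction were counted only where either fit passed, and were 0. Changes of sign where neither fit passed are among the 689. With the replicate number as a block the counts were 7 for OTX015 in P/R cells, 6 for OTX015 in parental cells, 7 for the lines under OTX015, 5 for the untreated lines and 0 for the difference, as without it. The labels do not say what a shared replicate number means. Same-numbered deviations correlated at -0.12 to 0.10 between groups, which cannot settle whether the samples were paired. With crossed numbers, an alternative added because the treated groups gave the -0.12, 7 genes were called for the lines under OTX015, as reported. Over all genes, leaving out 1 library gave 1758 to 2624 calls for the lines under OTX015 (2747 with all libraries), 1594 to 2684 for the untreated lines (2647) and 0 to 8 for the difference (9), which had 2 with the block, 3 without the trend, 4 with no filter or a pseudocount of 0.1, and 29 with a pseudocount of 5. A library left out leaves its group with 1, assumed to vary like the others. Depth is unknown, so ERG, below 1 FPKM throughout, has no detection limit that can be given.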
